A study of Mus musculus with 2 samples.

Results

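Dendritic cells were selected from 2 single-cell libraries of mouse brain by their own transcripts, and 71 of 21259 cell barcodes met the selection: 25 of 10842 in the library titled positive and 46 of 10417 in the library titled control. A barcode was kept when its unique molecular identifiers (UMIs, each counting 1 captured RNA molecule) met 6 conditions. Cd74, H2-Aa, H2-Ab1 and H2-Eb1, the class II antigen presentation genes, summed to at least 30. Flt3, Zbtb46, Xcr1, Cd209a and Ccr7, genes of the dendritic lineage and its branches, summed to at least 2. The complement genes C1qa, C1qb and C1qc, which mark macrophages and microglia, summed to at most 5, and the microglial genes P2ry12 and Tmem119 to at most 1. No UMI of Cd3d, Cd3e or Cd3g, the T cell receptor complex, was allowed, and the epithelial genes Epcam, Krt8 and Krt18 summed to at most 5.

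Both libraries came from brains of Balb/c mice and were made from polyA RNA with the Singleron GEXSCOPE microfluidic chip kit, 1 library per group. Both are labelled as triple-negative breast cancer, and the label names 4T1, a mouse mammary carcinoma line. The titles and the treatment field contradict each other: the library titled positive is labelled as without 4T1 metastasis, and the library titled control as with it. The groups are therefore called by their titles, and no direction with or without metastasis is drawn. With 1 library per group there is no replicate check: no test between the groups was possible, cells are not replicates, and differences between the libraries cannot be told apart from differences between animals, dissociations or runs. The intervals given are exact 95% intervals and cover counting error only.

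The library titled positive held 98141261 UMIs and the library titled control 55657687, with medians of 7383.5 and 4230 UMIs per barcode. The 3 epithelial genes summed to at most 5 in 33.67% of barcodes of the titled positive library and in 99.85% of the titled control library. Of the barcode sequences, 149 occurred in both libraries, and 0 of these belonged to dendritic cells. The dendritic cells themselves had a median of 4294 UMIs (3191 to 8279) in titled positive and 6014 UMIs (2686 to 18310) in titled control. Their pooled depths were 118806 and 296036 UMIs, so that 1 UMI was worth 8.417 counts scaled to a total of 1e6 (CPM) in titled positive and 3.378 CPM in titled control.

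Dendritic cells take up proteins, cut them into peptides and show these on class II molecules to helper T cells. Type 1 conventional dendritic cells carry the chemokine receptor XCR1 and the lectin CLEC9A, depend on the transcription factor IRF8, and present peptides of engulfed cells on class I molecules to cytotoxic T cells. Type 2 conventional dendritic cells, many of which carry CD209a and the lectin MGL2 in the mouse, present mainly to helper T cells. On activation both branches switch on CCR7, the receptor that guides them to lymph nodes. Plasmacytoid cells are the interferon-secreting relatives of this lineage. In the brain, dendritic cells are rare and lie mostly in the meninges and the choroid plexus.

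Class II genes are switched on together in antigen-presenting cells through a shared promoter module, one box of which, the Y box, holds an inverted CCAAT sequence. Promoter windows of 4 class II genes are shown because these genes define or accompany the dendritic cells here: H2-Aa and H2-Eb1 encode class II chains, and H2-DMb1 and H2-DMb2 encode chains of the H2-M complex, which loads peptides on them. Each window is from RefSeq (GRCm38.p6), runs from 250 bases before to 50 bases after the start, and is written along the gene's strand with GATTGG, or CCAATC for the other strand, in capitals. The windows are chr17:34287774-34288073 (H2-Aa, minus strand), chr17:34305617-34305916 (H2-Eb1, plus strand), chr17:34152941-34153240 (H2-DMb1, plus strand) and chr17:34144999-34145298 (H2-DMb2, plus strand).
H2-Aa: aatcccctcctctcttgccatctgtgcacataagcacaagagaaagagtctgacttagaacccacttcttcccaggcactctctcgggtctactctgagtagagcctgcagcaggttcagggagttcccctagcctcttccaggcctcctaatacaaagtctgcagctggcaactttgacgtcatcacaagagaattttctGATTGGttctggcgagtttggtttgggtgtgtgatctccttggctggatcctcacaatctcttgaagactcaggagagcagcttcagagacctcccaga
H2-Eb1: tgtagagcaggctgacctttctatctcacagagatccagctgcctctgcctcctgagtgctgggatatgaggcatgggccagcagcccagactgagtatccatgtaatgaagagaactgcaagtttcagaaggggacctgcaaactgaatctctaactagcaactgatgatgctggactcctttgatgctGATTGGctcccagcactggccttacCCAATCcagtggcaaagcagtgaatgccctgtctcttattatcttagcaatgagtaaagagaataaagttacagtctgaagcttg
H2-DMb1: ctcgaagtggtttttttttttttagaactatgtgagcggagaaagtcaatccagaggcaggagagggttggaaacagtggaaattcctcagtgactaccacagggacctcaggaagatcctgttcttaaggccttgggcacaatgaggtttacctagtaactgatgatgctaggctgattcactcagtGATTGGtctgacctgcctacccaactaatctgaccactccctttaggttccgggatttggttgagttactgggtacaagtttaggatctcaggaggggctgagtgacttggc
H2-DMb2: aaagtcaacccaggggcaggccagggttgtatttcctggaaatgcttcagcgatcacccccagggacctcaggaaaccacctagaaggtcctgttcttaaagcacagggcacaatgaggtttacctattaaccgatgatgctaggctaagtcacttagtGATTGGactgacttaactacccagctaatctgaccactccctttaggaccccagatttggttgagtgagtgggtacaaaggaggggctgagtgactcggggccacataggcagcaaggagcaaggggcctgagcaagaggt
GATTGG, searched on both strands, was found in 7 of 8 windows of class II genes, belonging to 7 genes of 10 searched for a window, against 16.1% of all 32851 windows in the table (5292 windows). Counted from the window's first base, it began at 202 in H2-Aa, 191 in H2-Eb1, 189 in H2-DMb1 and 160 in H2-DMb2, at 207 in H2-Oa and at 193 in H2-Ob. In H2-DMa, which has 2 windows in the table, it began at 52 in one and was not found in the other. H2-Eb1 also held it on the other strand. These matches describe the letters and no binding was measured.

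The selection left dendritic cells as 0.2306% of barcodes in titled positive (0.149 to 0.340) and 0.4416% in titled control (0.3235 to 0.5886). These shares depend on what else each library held: in titled positive 14 further barcodes failed the epithelial limit alone, with 6 to 61 UMIs of those genes, and in titled control 0 did. The dendritic marker sum was the condition that most often failed alone, in 490 barcodes of titled positive and 38 of titled control. Just outside that threshold, 20 and 4 barcodes had a sum of 1, and just inside it 10 and 5 dendritic cells had a sum of exactly 2, in titled positive and titled control. When every barcode was thinned to 2000 UMIs, the same conditions found 17 cells in titled positive and 46 in titled control. Of these, 12 and 34 were among the cells selected at full depth.

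The genes that made the selection had these levels, given as a description. The 4 class II genes summed to between 47 and 623 UMIs per dendritic cell in titled positive, with a median of 247, and to between 33 and 1331 UMIs in titled control, with a median of 587. Cd74, the class II invariant chain, stood at 26800 CPM in titled positive and 48160 CPM in titled control, and H2-Aa at 13360 and 21610 CPM. Flt3, the receptor for the growth factor of the lineage, gave 22 UMIs in 11 cells of titled positive and 39 UMIs in 19 cells of titled control. Zbtb46, a transcription factor of conventional dendritic cells, gave 4 UMIs in 3 cells and 11 UMIs in 7 cells. Xcr1 stood at 345.1 CPM in titled positive and 212.8 CPM in titled control, whereas Cd209a stood at 75.75 CPM in titled positive and 2202 CPM in titled control.

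The selected cells of the 2 libraries showed the branch genes in different proportions. The cells were divided by which of Xcr1, Cd209a and Ccr7 they showed, into gates named after the gene (at least 1 UMI of it and none of the other 2). In titled positive, 13 of 25 cells fell in the Xcr1 gate (52.0%, 31.31 to 72.2), 3 in the Cd209a gate (12%, 2.547 to 31.22) and 4 in the Ccr7 gate (16%, 4.538 to 36.08), while 5 showed none of the 3 genes. In titled control, 29 of 46 cells fell in the Cd209a gate (63.04%, 47.55 to 76.79), 10 in the Xcr1 gate (21.74%, 10.95 to 36.36) and 2 in the Ccr7 gate (4.348%), while 3 showed none and 2 showed more than 1 of the genes. The selection used these same genes, so the shares are a description of the selected cells. Their intervals cover counting error within 1 library per group, and the difference between the libraries was not tested.

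**Figure D1:**
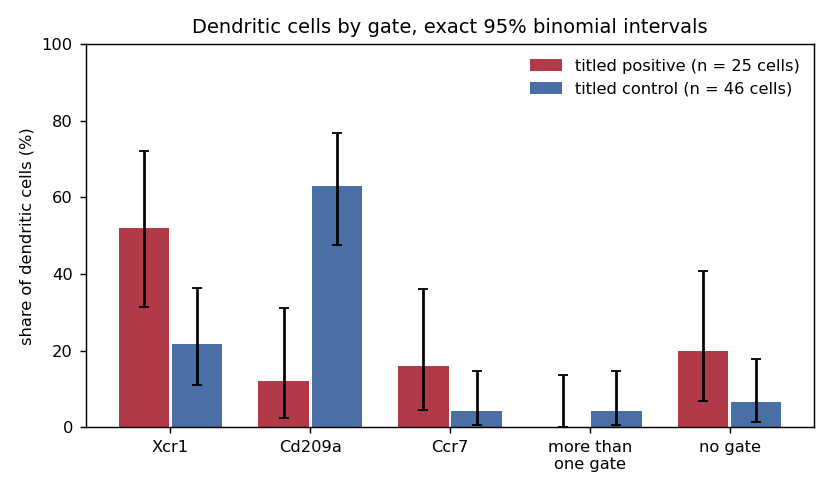
Share of dendritic cells in each gate (y axis, percent of the library's dendritic cells, with exact 95% binomial intervals as error bars), titled positive left of titled control. The Xcr1 gate holds 52.0% of cells in titled positive and 21.74% in titled control, and the Cd209a gate 12% and 63.04%.

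Genes outside the selection were read beside the name of dendritic cell. A list of 12 general dendritic cell genes, among them Cst3 (cystatin C, abundant in conventional dendritic cells) and Itgax (CD11c), summed to 30210 CPM in titled positive and 28100 CPM in titled control, with 12 of 12 genes detected in both; Cst3 alone made up 28542 and 26102 CPM of these sums. Macrophage genes summed to 4.99% and 7.46% of their level in barcodes with at least 20 C1q UMIs, and microglial genes to 7.45% and 4.83% of their level in microglia. The selection capped C1q, P2ry12 and Tmem119, and these reference barcodes were picked for high levels of them. The low macrophage and microglial shares are therefore a description and no check of the name. Monocyte genes stood at 27.4% in titled positive and 16.5% in titled control of their level in barcodes with at least 3 UMIs of Ly6c2 and Ccr2. That level was 11800 CPM in titled positive and 22030 CPM in titled control. The list holds Ly6c2 and Ccr2, and these reference barcodes included other cells, as given with the monocyte comparison. The monocyte shares are therefore a description too. Microglia are barcodes with at least 5 UMIs of P2ry12 and Tmem119, and oligodendrocytes barcodes with at least 5 of Mog, Mag, Opalin and Cldn11 and few class II UMIs. Some barcodes carried another lineage beside the dendritic genes. At least 50 UMIs of a T and NK cell, neutrophil, B cell, oligodendrocyte or astrocyte list were found in 4 cells of titled positive (3 with neutrophil genes, 1 with T and NK cell genes). They were found in 6 cells of titled control (4 with oligodendrocyte, 3 with astrocyte and 1 with B cell genes, some with more than 1). List sums between the libraries, and single genes that rest on these 10 cells, are also given without them. Scrublet called 0 dendritic cells of titled positive and 1 of titled control as doublets.

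Genes of other brain cells were spread over the dendritic cells of titled control. The oligodendrocyte list gave 555.5 CPM in titled positive and 8810 CPM in titled control, with 0 to 7 UMIs per cell (median 2) against 7 to 779 (median 17.5). These levels were 1.00% and 8.95% of those in oligodendrocytes of the same library. The carcinoma gene list gave 488.2 CPM in dendritic cells of titled positive and 27.02 CPM in titled control; in oligodendrocytes, which should lack these genes, it gave 449.8 and 10.53 CPM. The neutrophil list gave 2559 CPM in titled positive, where all 10 genes were detected, and 30.4 CPM in titled control, where Csf3r, Cxcr2, Mmp9, Ly6g and Camp were at 0. In oligodendrocytes, which should lack these genes too, it gave 2052 and 369.8 CPM. The part of such RNA in the differences between libraries was not tested.

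**Figure D2:**
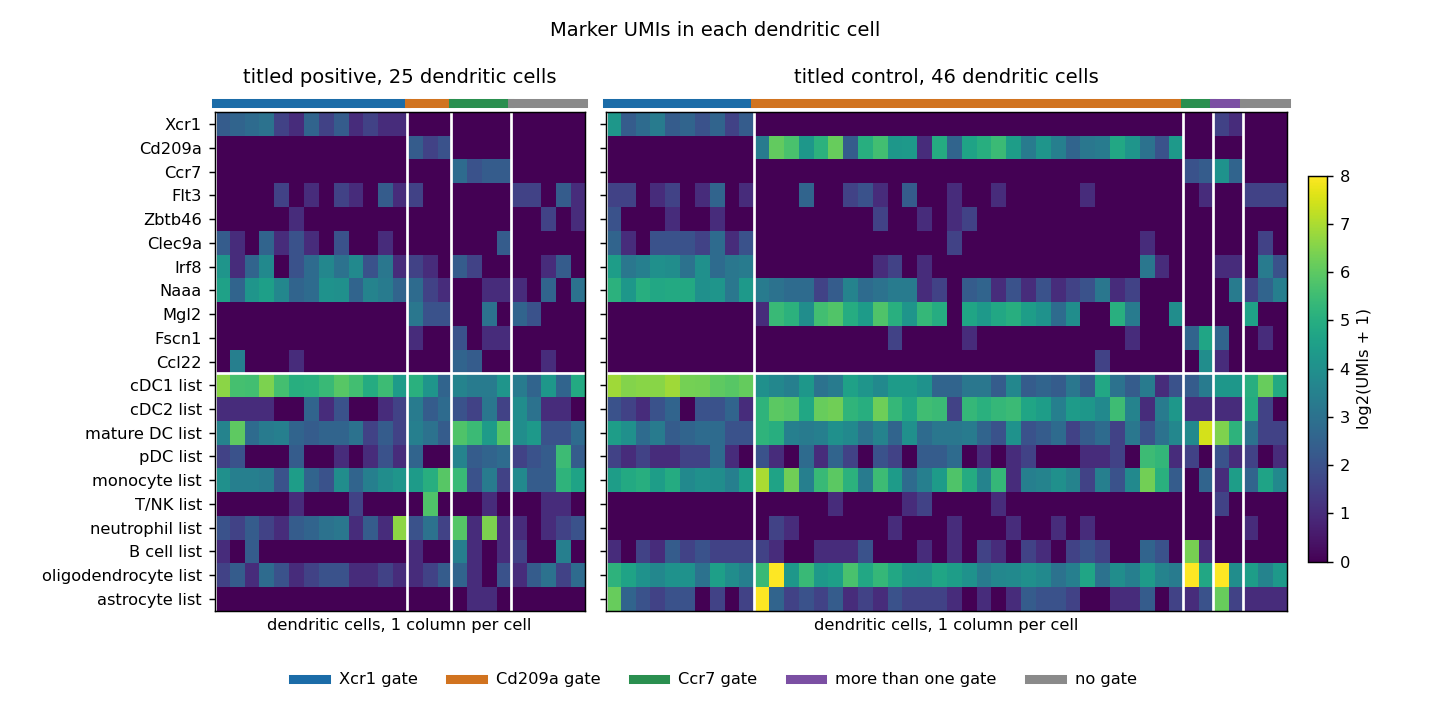
Marker genes and summed marker lists (rows) in each of the 71 dendritic cells (columns, titled positive left of titled control, ordered by gate), with colour showing log2 of the cell's UMIs plus 1; cDC1, cDC2 and pDC stand for the type 1, type 2 and plasmacytoid lists. The Xcr1 gate columns show the type 1 genes in both libraries, and most Cd209a gate columns of titled control show Mgl2.

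Cells of the Xcr1 gate carried the type 1 programme in both libraries. Each library's gate was set against the other dendritic cells of that library, leaving out genes of the selection, and genes with at least 20 UMIs over both sums were counted. All log2 ratios add 0.5 counts to each sum. In titled positive, 9 of 9 counted genes of a 15-gene type 1 list were higher in the Xcr1 gate, 6 of them at least 2-fold. The background there was 10.7% of 925 counted genes at least 2-fold higher and 12.8% at least 2-fold lower. In titled control, 12 of 12 counted genes were higher and 10 at least 2-fold, where 8.94% of 2147 counted genes were at least 2-fold higher and 20.9% at least 2-fold lower. The median log2 ratio of the counted list genes was 2.53 in titled positive and 2.83 in titled control. Some, such as Wdfy4 in titled positive and Gcsam in titled control, passed the 20 UMI filter through the Xcr1 gate alone. The filter therefore favours genes that are higher in the gate. The whole list, summed without the filter, gave log2 ratios of 1.85 in titled positive and 2.64 in titled control.

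Irf8, the transcription factor on which the type 1 branch depends (chr8:120736358-120756694, GRCm38), gave 89 UMIs in 12 of the 13 Xcr1 gate cells of titled positive, against 14 UMIs in the other 12 cells (log2 ratio 2.55). In titled control it gave 113 UMIs, found in all 10 Xcr1 gate cells, against 27 UMIs in 9 of the other 36 cells (log2 ratio 3.84). Clec9a, the receptor for dead cells on type 1 cells, gave 19 against 4 UMIs in titled positive and 27 against 5 in titled control (log2 ratios 2.04 and 4.11). Naaa, a lysosomal amidase, gave 151 against 24 UMIs in titled positive (log2 ratio 2.56) and 225 against 139 UMIs in titled control (2.48). Ppt1, a lysosomal thioesterase, gave 89 against 12 UMIs in titled positive (2.77). Its log2 ratio in titled control was 3.27. Wdfy4, needed for cross-presentation of cell-associated antigen in the mouse, and Tlr3, the receptor for double-stranded RNA, gave 33 against 5 and 17 against 1 UMIs in titled positive. Gcsam gave 34 UMIs in the Xcr1 gate of titled control and 0 in the other cells, at least 39.2-fold higher against a floor of 3 counts.

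Among the other genes that led the Xcr1 gate, some led it in 1 library and not in the other, which was not tested. In titled positive they were Zyx (zyxin, of focal adhesions; log2 ratio 1.55), Psap (prosaposin, 1.52), Mkrn1, Plbd1, Uqcrq of the respiratory chain, Ly6a and Hint1 (1.18). In titled control they were Rtl8b (2.81), Mpeg1 (perforin-2, 2.77), Id2 (a transcriptional regulator needed for type 1 cells, 2.0), Anxa1, Psme1 and Aif1 (1.37). Several were also higher in the gate of the other library: Psap (1.09) and Plbd1 (1.20) in titled control, and Mpeg1 (1.15) and Id2 (0.72) in titled positive. Zyx stood at -0.18 in titled control. Ctss, the protease that trims the invariant chain, had a log2 ratio of -1.61 in titled positive. Mgl2 gave 0 UMIs in the Xcr1 gate of titled control and 654 in the other cells, at least 63.0-fold lower.

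**Figure D3:**
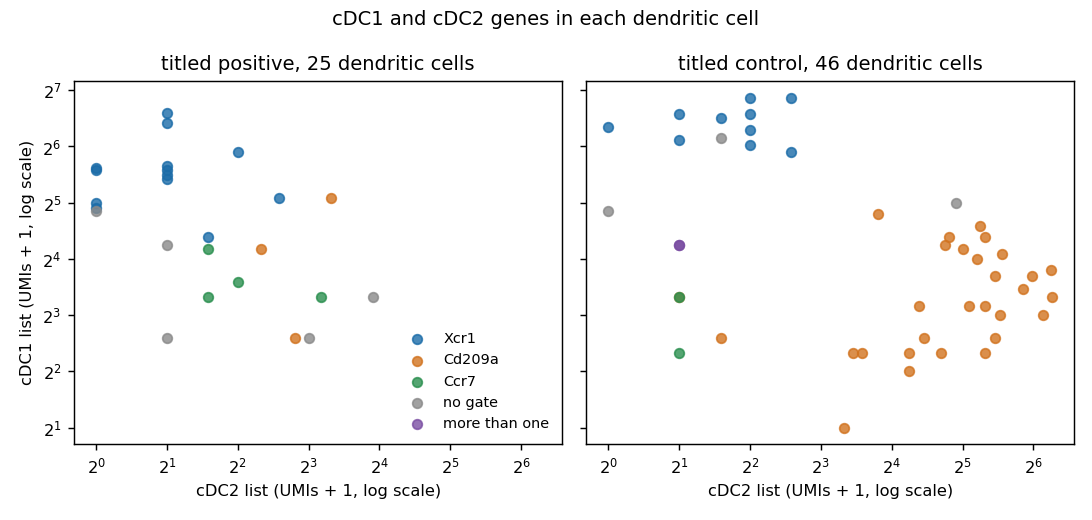
Each point is 1 dendritic cell, placed by its UMIs plus 1 of the type 2 (cDC2) list on the x axis and of the type 1 (cDC1) list on the y axis, both log axes, with gates by colour and titled positive in the left panel. Xcr1 gate cells lie at high type 1 levels in both panels. Of the 29 Cd209a gate cells of titled control, 26 have at least 10 UMIs of the type 2 list, and the lowest has 1.

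Cells of the Cd209a gate could be described in depth in titled control alone, where they numbered 29. There 9 of 9 counted genes of the type 2 list were higher than in the other 17 dendritic cells. Of these 8 were at least 2-fold higher, and the median log2 ratio was 3.28. The background was 12.7% of 2147 counted genes at least 2-fold higher and 9.22% at least 2-fold lower. Some list genes, such as Clec10a, passed the filter through this gate alone. The whole list, summed without the filter, gave a log2 ratio of 3.29. Mgl2, a galactose-binding lectin (chr11:70130329-70137550, GRCm38), gave 631 UMIs in 24 of the 29 cells against 23 UMIs, all in 1 of the other 17 cells (log2 ratio 4.06). Of 10 counted C-type lectins, 9 were higher and 8 at least 2-fold, and here too some, such as Mrc1, passed the filter through this gate alone. Mrc1, the mannose receptor, gave 72 UMIs against 0, at least 14.9-fold higher. Clec10a, the paralogue of Mgl2, gave 36 UMIs against 0, at least 7.45-fold higher, and since Mgl2 and Clec10a are close copies their counts are uncertain where reads could be shared.

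Further genes led this gate. Of the fixed monocyte list 4 of 6 counted genes were higher, 3 of them at least 2-fold, and 2 were lower, 0 of them at least 2-fold. The list summed to a log2 ratio of 0.88 (0.68 to 1.08). Ifitm2, an interferon-induced membrane protein, gave 225 UMIs against 4 (log2 ratio 4.96), and Cfp, the complement factor properdin, Clec4b1, Fcgr3 (an IgG receptor) and Socs3 had log2 ratios of 3.81, 3.63, 3.16 and 3.06. Il1b, a cytokine, had a log2 ratio of 3.37 with 39 of its UMIs in 1 cell. Ly6c2, a gene of monocytes and plasmacytoid cells, had 3.22; it was found in 4 of the 29 cells, and 50 and 23 of its 112 UMIs were in the 2 cells with strong plasmacytoid genes described with that list. Hopx gave 70 UMIs against 2, of which 67 were in 1 cell. Without the cell that Scrublet called a doublet its log2 ratio was -0.05. Of the class II accessory genes, 6 of 8 were higher and 2 at least 2-fold, among them H2-DMb2 (1.18), and 11 of 12 immediate early genes were higher. The 3 Cd209a gate cells of titled positive gave 14 UMIs of Mgl2 (3, 3 and 8 per cell), 13 of Ccr2 and 19 of the whole type 2 list. They gave more of other lists, with 55 UMIs of the type 1 list and 111 of the monocyte list, 60 of these in 1 cell that had 22 UMIs of the general dendritic list. Another of these cells gave Gzma 25, Nkg7 15 and Prf1 6 UMIs, genes of cytotoxic lymphocytes.

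The Ccr7 gate was small, and most of its cells carried maturation genes. In titled positive its 4 cells gave 178 UMIs of a list of 34 maturation genes (9261 CPM), with at least 10 UMIs in each cell. Ccl17, a chemokine that attracts T cells (chr8:94810453-94812036, GRCm38), gave 44 UMIs and was found in all 4 cells, Ccl22 gave 9 UMIs, and Fscn1, the actin bundler of mature dendritic cells, 5 UMIs. Of these 4 cells, 2 carried the neutrophil gene S100a8 at 52 and 38 UMIs. In titled control the 2 Ccr7 gate cells were unlike each other, with 177 and 13 UMIs of the list. The first gave Fscn1 25, Cd63 23, Ccl17 20, Il4i1 16, Ccl22 14, Relb 11 and Cd83 10 UMIs. The second gave Igkc 64 and Cd79a 6 UMIs (B cells), so that its markers go against the name of dendritic cell.

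Plasmacytoid genes were strong in 3 cells. At least 30 UMIs of an 11-gene plasmacytoid list were found in 1 cell of titled positive and 2 cells of titled control. The cell of titled positive, in none of the gates, gave Siglech 16, Bst2 13 and Ccr9 8 UMIs, with Ly6c2 at 22. The 2 cells of titled control, both in the Cd209a gate, gave Siglech 15 and 10, Bst2 17 and 7, and Klk1 4 and 10 UMIs, with Ly6c2 at 50 and 23. 

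Set against each other as wholes, the selected cells of the 2 libraries differed in the shares of the gates, whose genes the selection used. Of 3037 counted genes, 14.0% were at least 2-fold higher in titled positive (424 genes) and 13.3% at least 2-fold lower (403), around a median log2 ratio of 0.11. All 9 counted genes of the type 2 list were lower in titled positive and 8 at least 2-fold, but some, such as Clec10a and Klf4, passed the filter through titled control alone. The whole list gave 73 UMIs in titled positive and 1032 in titled control (log2 ratio -2.50, -2.87 to -2.16). The selection used Cd209a, a gene of type 2 cells, so this difference describes the selected cells. Mgl2 gave 29 against 654 UMIs (log2 ratio -3.15), Clec10a 3 against 36 and Klf4, a transcription factor of type 2 cells, 5 against 36. Of the type 1 list, 12 of 15 counted genes were higher in titled positive and 4 at least 2-fold, with a summed log2 ratio of 0.57. Within the Xcr1 gate alone the sign of that sum was the opposite, as given with that gate. Among 17 counted maturation genes 7 were higher and 10 lower.

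Over all dendritic cells, whose gate shares differed, class I genes were higher in titled positive. Of 19 counted class I genes, 18 were higher in titled positive and 10 at least 2-fold (median log2 ratio 1.02). Over all 3037 counted genes 1710 were higher and 14.0% at least 2-fold higher. Tap1, a peptide transporter, gave 48 against 30 UMIs (1.99), and B2m, the class I light chain, 845 against 1220 UMIs, or 7112 against 4121 CPM (0.79; 0.52 without the mixed cells). Without the 10 cells that carried another lineage the class I sum gave a log2 ratio of 0.61, against 0.82 with them. Of 9 counted class II accessory genes 2 were higher and 7 lower, 0 of them at least 2-fold, and the summed log2 ratio was 0.06 (-0.07 to 0.18). H2-DMb1 stood at -0.88, H2-DMa at -0.29, Ciita, the regulator of class II genes, at -0.30, and Ifi30, a lysosomal reductase, at 0.63. H2-DMb1 and H2-DMb2 are near copies, and their separate counts are uncertain.

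Genes induced by interferon gamma were higher in titled positive. The whole list of 15 genes summed to 2365 CPM in titled positive and 388.5 CPM in titled control (log2 ratio 2.60, 2.29 to 2.93). The 9 genes counted were all at least 2-fold higher, but some, such as Iigp1 and Igtp, passed the 20 UMI filter through titled positive alone, and 6 genes were not counted. Iigp1, Igtp and Irgm1, GTPases that act on vacuoles of intracellular pathogens, had log2 ratios of 4.78 (27 against 2 UMIs, 3.08 to 8.19), 3.41 (23 against 5) and 2.15. Gbp2 stood at 2.78 and Cxcl9, a chemokine for T cells, at 2.42. Of 10 counted type I interferon genes 9 were higher and 3 at least 2-fold. Of 9 counted glycolysis and hypoxia genes 8 were higher and 6 at least 2-fold, among them Gapdh (1.37) and Pkm (2.05). Over all 3037 counted genes 1710 were higher and 14.0% at least 2-fold higher. Summed without the filter, the type I interferon list gave a log2 ratio of 0.52 and the glycolysis and hypoxia list 1.23.

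**Figure D4:**
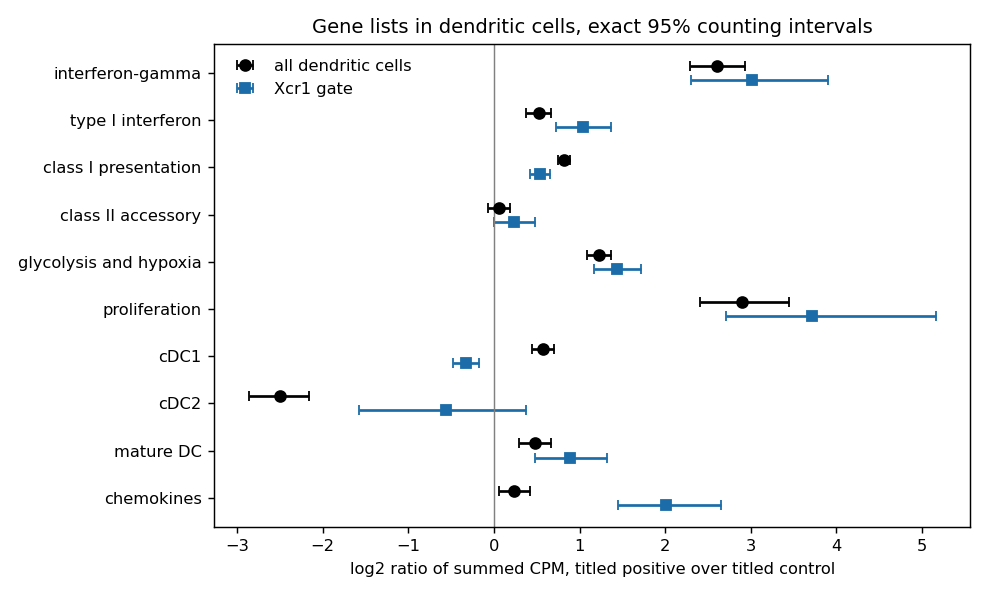
Summed log2 ratio of each gene list, titled positive over titled control (x axis, with exact 95% intervals of counting error), for all dendritic cells and for the Xcr1 gate alone. The interferon gamma, glycolysis and proliferation lists lie above 0 in both, and the type 1 list lies at 0.57 in all cells and at -0.32 in the Xcr1 gate.

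Among the 10 genes highest in titled positive were S100a8, a neutrophil protein (171 UMIs in 17 cells against 2 UMIs; log2 ratio 7.42, 5.86 to 10.79), Ifitm1 (6.04, with 45 of 118 UMIs in 1 cell) and Ly6a (2.92). Lgals1 (galectin-1) had 2.07, AW112010, an interferon-induced transcript, 1.96, Fgl2 1.84, Plac8 1.57, Ly6e 1.51 and Txn1 (thioredoxin) 1.39. Without the cells that carried another lineage S100a8 stood at 5.37. The neutrophil list, which holds S100a8, gave 2559 CPM in dendritic cells and 2052 CPM in oligodendrocytes of titled positive. In titled control it gave 30.4 and 369.8 CPM. The genes lowest in titled positive were genes of glia. Sept4 (2 against 237 UMIs), Ermn, Mag, Car2 and Cryab are expressed by oligodendrocytes. Sparcl1 (0 against 351 UMIs, at least 47.0-fold lower, with 225 UMIs in 1 cell), Slc1a3 (0 against 128, with 111 in 1 cell), Gpr37l1 (0 against 116) and Aldoc are expressed by astrocytes. Without the 10 mixed cells the values were 0 against 49 UMIs for Sparcl1 (at least 7.25-fold lower), 0 against 11 for Slc1a3 (at least 1.63-fold lower) and 0 against 14 for Gpr37l1 (at least 2.07-fold lower). When those cells were left out, the number of genes at least 2-fold lower was 243, against 403 with them. Of 11 counted chemokines 7 were higher and 4 lower. Ccl17 gave 86 against 77 UMIs (1.48). Ccl5 gave 71 against 373 UMIs, of which 358 were in 1 titled control cell, one of those with at least 50 UMIs of the oligodendrocyte list. Its log2 ratio was -1.07 with the mixed cells and 1.87 (0.87 to 2.96) without them, at 23 against 14 UMIs, so its direction turned on them.

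The Xcr1 gate allowed a comparison within 1 gate, of 13 cells in titled positive (60892 UMIs) and 10 in titled control (66339 UMIs). This comparison was chosen after the gate shares had been seen. The cells of the gate were not all alike. In titled positive 1 cell held 63 of 133 maturation UMIs, 38 of 122 interferon gamma UMIs and 55 of 116 chemokine UMIs. Of 914 counted genes 18.7% were at least 2-fold higher in titled positive (171) and 10.2% at least 2-fold lower (93). The type 1 list summed to 20 to 96 UMIs per cell in titled positive (median 47) and 59 to 116 in titled control (median 85). In CPM the medians were 10770 and 13130 CPM, and the sums differed by a log2 ratio of -0.32 (-0.48 to -0.17). The ranges of the cells overlapped. Irf8 gave 89 against 113 UMIs (-0.22, -0.64 to 0.19), Clec9a 19 against 27 (-0.37), Naaa 151 against 225 (-0.45), Id2 118 against 170 (-0.40) and Wdfy4 33 against 27 (0.41). Itgae, the integrin CD103, gave 30 against 15 UMIs (1.10). The type 2 list gave 16 and 26 UMIs.

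Ccr2, the receptor that brings monocytes and their kin out of the blood (chr9:124101950-124113557, GRCm38), was lower in the Xcr1 gate cells of titled positive. It gave 1 UMI in 1 of 13 cells of titled positive (16.42 CPM). It gave 71 UMIs in titled control, found in all 10 cells at 2 to 11 UMIs each with a median of 7 (1070 CPM). The ranges did not overlap, and the log2 ratio was -5.45 (-11.35 to -3.5). This gene was chosen after its values were seen, and how many other genes had ranges without overlap was not counted. The gate's cells also differed in depth, with medians of 3849 UMIs in titled positive and 5979.5 UMIs in titled control. Ccr2 was also lower in titled positive among macrophages (129.1 against 537.1 CPM). In the Cd209a gate it was not lower, at 934.6 CPM in 3 cells of titled positive and 750.1 CPM in 29 cells of titled control. It stood at 10.04 and 5.736 CPM in oligodendrocytes, which should lack it. After thinning each cell to 1000 UMIs, 0 of 13 titled positive cells and 3 of 10 titled control cells showed it. Without the mixed cells it gave 1 UMI in 12 cells against 60 UMIs in 9 cells. Itgb7, an integrin of homing, gave 7 against 26 UMIs (-1.70).

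Genes of the interferon gamma response were higher in the Xcr1 gate of titled positive too. The list gave 122 UMIs (2004 CPM) in titled positive and 16 UMIs (241.2 CPM) in titled control, a log2 ratio of 3.02 (2.30 to 3.91). Per cell it ran from 454.5 to 5452 CPM (median 1617) in titled positive and from 0 to 838.8 CPM (median 215.6) in titled control, so the ranges overlapped at their ends. Irgm1 gave 19 against 5 UMIs (1.95, 0.58 to 3.83). Cxcl9 gave 18 UMIs in 5 cells, 13 of them in 1 cell, against 0, at least 6.54-fold higher. Class I genes had a summed log2 ratio of 0.53 (0.42 to 0.65). Of 17 counted genes 14 were higher and 3 at least 2-fold, a share no larger than the 18.7% of all counted genes. B2m gave 390 against 175 UMIs, or 6405 against 2638 CPM (1.28, 1.02 to 1.55), Tap2 stood at 1.15 and Psme2 at 1.03, while H2-D1, a class I heavy chain, stood at 0.06. The class II accessory list gave 0.24 (-0.0018 to 0.48) in this gate, with 3 of 6 counted genes higher. Type I interferon genes summed to a log2 ratio of 1.04 (0.73 to 1.37) but went both ways: Ifitm3 gave 141 against 31 UMIs (2.29, 1.74 to 2.92) and Ifi27l2a 17 against 46 (-1.29).

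Glycolytic genes were higher in titled positive in the Xcr1 gate: 6 of 6 counted genes were higher and 4 at least 2-fold. Over all 914 counted genes 18.7% were at least 2-fold higher. The list ran from 3679 to 9204 CPM per cell (median 5443) in titled positive and from 1095 to 4515 CPM (median 1872) in titled control, and the sums differed by a log2 ratio of 1.44 (1.17 to 1.72). Gapdh gave 162 against 54 UMIs (1.70), Ldha, lactate dehydrogenase, 67 against 29 (1.32), Pkm, pyruvate kinase, 49 against 14 (1.90, 1.05 to 2.90) and Tpi1 29 against 4 (2.84). Genes of the respiratory chain summed to a log2 ratio of 0.82 (0.59 to 1.06).

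Genes of dividing cells were seen mainly in titled positive. In the Xcr1 gate the proliferation list gave 90 UMIs (1478 CPM) in titled positive and 7 UMIs (105.5 CPM) in titled control, a log2 ratio of 3.72 (2.71 to 5.16). It was uneven among the cells, from 0 to 4936 CPM (median 597.4) in titled positive and from 0 to 457.8 CPM (median 0) in titled control, and 4 cells of titled positive against 0 of titled control gave at least 10 UMIs. Top2a, a topoisomerase of dividing cells, gave 13 UMIs against 0, at least 4.72-fold higher, and Mki67 (Ki-67) 11 UMIs in 5 cells against 0, at least 3.99-fold higher. Over all dendritic cells, 5 of titled positive and 0 of titled control gave at least 10 UMIs of the list.

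Chemokines gave 116 UMIs in the Xcr1 gate of titled positive, 55 of them in 1 cell, and 31 in titled control (log2 ratio 2.01, 1.45 to 2.65). Ccl17 gave 30 UMIs in 5 cells, 21 of them in 1, against 0, and Cxcl16 gave 21 against 7 UMIs (1.64). Within this gate the neutrophil list gave 140 UMIs in titled positive, 98 of them in 1 cell, and 0 in titled control. The astrocyte list gave 0 in titled positive and 90 in titled control, 70 of them in 1 cell. With those cells left out (12 and 9 remained) the log2 ratios were 3.02 for the interferon gamma list, 1.46 for glycolysis, 3.55 for proliferation, 0.48 for class I, 2.13 for chemokines and -0.33 for the type 1 list.

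**Figure D5:**
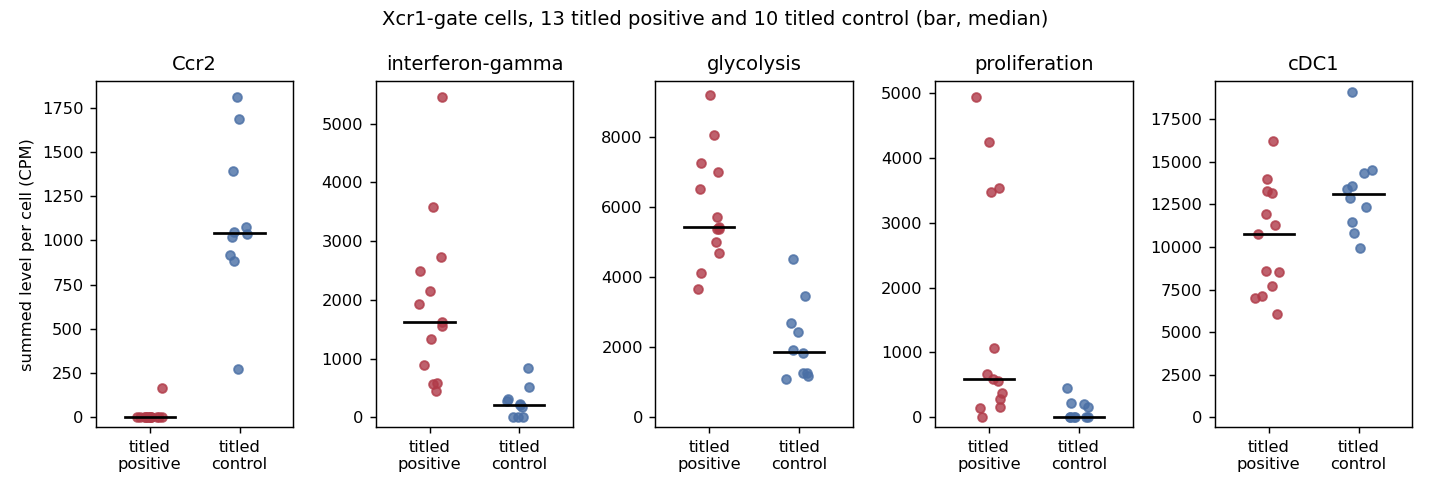
Level in each Xcr1 gate cell (points, CPM on the y axes) of Ccr2 and of the interferon gamma, glycolysis, proliferation and type 1 (cDC1) lists, 13 cells of titled positive left of 10 cells of titled control, with the median as a line. The Ccr2 values of the 2 libraries do not overlap, and the glycolysis and interferon gamma lists overlap only at their ends. Ccr2 was chosen after its values were seen.

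Several of these differences were measured in other cells of the same libraries as well. The interferon gamma list was higher in titled positive in macrophages (4795 against 388.3 CPM, log2 ratio 3.62), monocytes (4241 against 990.7, 2.10), microglia (6057 against 378.5, 4.00) and oligodendrocytes (6280 against 129.4, 5.60), beside 2.60 in dendritic cells. Class I genes differed by 1.02 in macrophages, 0.40 in monocytes, 1.85 in microglia and 3.09 in oligodendrocytes, beside 0.82 in dendritic cells. Glycolytic genes differed by 1.61 in macrophages, 1.14 in monocytes, 0.93 in microglia and 0.16 in oligodendrocytes, beside 1.23 in dendritic cells. The proliferation list differed by 2.90 (2.41 to 3.45) in dendritic cells, 0.51 in macrophages, 1.02 in monocytes, 1.22 in microglia and -0.57 in oligodendrocytes. The difference between these cell types was not tested.

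Dendritic cells were next set against macrophages of the same library, barcodes with at least 20 C1q UMIs that otherwise met the limits on microglial, T cell and epithelial genes (1095 in titled positive and 87 in titled control). The pooled depths are very unequal here, so genes are counted where the mean level was at least 100 CPM, a limit chosen after seeing the data. With the 20 UMI filter instead, 23.2% of 10501 genes were at least 2-fold higher and 14.2% lower in titled positive, and 9.25% of 4962 higher and 15.4% lower in titled control. Of 1505 such genes in titled positive 10.5% were at least 2-fold higher in dendritic cells and 12.8% at least 2-fold lower. Of 1423 genes in titled control the shares were 8.57% and 12.7%. All 7 type 1 genes that passed this limit in titled positive, and all 4 in titled control, were at least 2-fold higher in dendritic cells, and all 7 and 9 genes of the macrophage list at least 2-fold lower. The 2 cell groups were chosen partly on C1q, and the dendritic cells partly on Xcr1, so both lists are a description. A type 1 gene that was low in macrophages could pass the limit through the dendritic cells alone.

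Lysosomal proteases and Cst3, an inhibitor of some of them, went opposite ways. Cst3 stood at 28542 CPM in dendritic cells and 2602 CPM in macrophages of titled positive (log2 ratio 3.46) and at 26102 and 10596 CPM in titled control (1.30). Ctsb, Ctsd and Ctss, lysosomal proteases, were lower in dendritic cells, by log2 ratios of -3.02, -3.38 and -2.07 in titled positive and -3.07, -3.81 and -1.63 in titled control. Apoe, the lipid carrier, stood at -4.92 and -4.51, and Lyz2, lysozyme, at -3.84 and -3.71. Ms4a7, a macrophage membrane protein, gave 0 UMIs in dendritic cells of both libraries, against 1005 and 444 UMIs in macrophages, at least 6.10-fold and at least 102-fold lower.

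The class II accessory genes did not go one way. Their summed level was lower in dendritic cells than in macrophages in both libraries, at 6271 against 16020 CPM in titled positive (log2 ratio -1.35, -1.46 to -1.25) and 6026 against 8131 CPM in titled control (-0.43, -0.52 to -0.35). Of 8 counted genes in each library 6 were higher and 2 at least 2-fold lower. The lower ones were the proteases Ctss and Lgmn, the second at -4.50 and -3.84 in titled positive and titled control. The chains of the loading complexes and their regulator were among the higher ones, and how the libraries differ was not tested. H2-DMb2, whose promoter is shown above, stood at 522 CPM in dendritic cells and 115 CPM in macrophages of titled positive (log2 ratio 2.20) and at 618 and 32.6 CPM in titled control (4.20). Ciita stood at 1.99 in titled positive and 3.50 in titled control, H2-DMb1 at 0.48 and 2.65, and H2-DMa at 0.06 and 1.94. H2-Oa, a chain of the inhibitor of H2-M, stood at 2.22 in titled positive and gave 61 UMIs against 0 in titled control, at least 29.5-fold higher. The interferon gamma list was lower in dendritic cells than in macrophages of titled positive (log2 ratio -1.02) and gave 388.5 CPM in dendritic cells and 388.3 CPM in macrophages of titled control.

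The genes that led dendritic cells over macrophages in titled positive were Cst3, Naaa (2.60), Lsp1 (a leukocyte actin-binding protein, 2.14), Crip1 (2.12), Irf8 (1.63), H2afz (1.61), Zyx (1.57), H2-Ea-ps (1.5), Ppt1 (1.28) and Malat1 (1.18). H2-Ea-ps is a pseudogene of a class II chain and its count is uncertain. In titled control they were Itgb7 (109 UMIs against 0, at least 52.8-fold higher), Napsa (7.06, 5.51 to 10.43, against 2 UMIs), Ccl5 (6.38, with 358 of 373 UMIs in 1 cell), Mgl2 (5.61), S100a4 (4.90), Lsp1 (4.51), H2-DMb2 (4.20), S100a11 (3.95), Plac8 (3.76) and Rnase6 (3.23). The type 1 list was higher in dendritic cells by a summed log2 ratio of 1.91 in titled positive and 2.19 in titled control.

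Against monocytes, barcodes with at least 3 UMIs of Ly6c2 and Ccr2, at most 5 of C1q and outside the dendritic selection (1023 in titled positive and 153 in titled control), the same limit counted 1564 and 1510 genes (with the 20 UMI filter instead, 18.9% of 11414 genes were at least 2-fold higher and 17.6% lower in titled positive, and 5.96% of 7086 higher and 19.2% lower in titled control). Of these 10.4% and 4.77% were at least 2-fold higher in dendritic cells, and 12% and 10.3% at least 2-fold lower. The general dendritic list, most of it Cst3, was higher by a summed log2 ratio of 3.84 in titled positive and 2.12 in titled control, and the type 1 list by 2.23 and 1.62. Class II accessory genes stood at 0.09 in titled positive and 1.18 in titled control. The summed log2 ratios of the neutrophil list were -2.56 and -9.31, and those of the monocyte list, without Ly6c2 and Ccr2, -1.91 and -2.89. This group was not free of other cells. The neutrophil list stood in it at 15160 CPM in titled positive and 20320 CPM in titled control, above the monocyte list at 9344 and 18450 CPM, and the endothelial list at 2931 and 5279 CPM. Besides, 88 barcodes in titled positive and 38 in titled control had a Cd3 UMI, and 330 and 0 exceeded the epithelial limit.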

How the data were processed

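The deposited files hold UMI counts per gene and barcode for 2 libraries of mouse brain. The submitters' processing notes name Cell Ranger, with no version, and GRCm38; filters, doublet removal and correction for free RNA are not stated in the labels or files. Per the labels' protocols the RNA is polyA-selected and the kit a microfluidic chip kit. Genes that share sequence were counted as deposited.

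UMIs were summed over the dendritic cells of a library, or of a gate, and divided by their total (CPM). With 1 library per group no test was run; log2 ratios use a pseudocount of 0.5 counts and exact conditional binomial intervals, CPM exact Poisson and shares exact Clopper-Pearson intervals, all at 95%. Genes with at least 20 UMIs over both sums were counted; the size used for counts is 2-fold. Named genes were the 10 highest and 10 lowest between libraries with at least 100 UMIs in the higher one, the 10 highest per gate of at least 10 cells with at least 50 UMIs, the 10 highest over macrophages with at least 100 UMIs, and members of the gene lists. Members and lists were chosen with earlier results of these data known. Alternatives changed the selection, depth, pseudocount and filters. The ratio and interval code was tested on simulated data. Python 3.11.15, scipy 1.17.1, pandas 2.3.3 and scanpy 1.11.5 (Scrublet) were used. Some genes that the naming rule picked are not reported here.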

Additional observations from a re-analysis of the deposited data

Results flagged for a closer look

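In 5 gene lists the dendritic cells lay on opposite sides of the macrophages of their own library in titled positive and titled control. These differences were not tested. The summed log2 ratio of dendritic cells over macrophages was 0.65 (0.38 to 0.89) for the proliferation list in titled positive and -1.75 (-2.27 to -1.28) in titled control. It was -0.63 (-0.997 to -0.311) for the type 2 dendritic list in titled positive and 0.47 (0.35 to 0.59) in titled control, where the Cd209a gate held most cells. It was 0.73 (0.42 to 1.00) for the plasmacytoid list in titled positive and -0.29 (-0.587 to -0.0046) in titled control. It was 0.97 (0.80 to 1.13) for the neutrophil list in titled positive and -2.61 (-3.86 to -1.69) in titled control, with 3 dendritic cells of titled positive holding at least 50 UMIs of it. It was -2.08 (-5.45 to -0.54) for the astrocyte list in titled positive, from 2 UMIs in dendritic cells, and 1.0 (0.80 to 1.20) in titled control, from 503 UMIs.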

How the results depend on the processing

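No paired analysis was possible because each group has 1 library. Of 312 values that answer a comparison 219 kept their direction and size under the alternatives, 91 moved and 2 changed sign. Of 520 values of single genes picked by rank 433 kept them, 86 moved and 1 changed sign. Ccl5 between the libraries was not among these values, and without the mixed cells it changed sign, to 1.87. The values below are for titled positive over titled control unless another comparison is named, and the cause was not tested except where the alternative itself leaves out cells or genes. The alternatives on the Xcr1 gate alone, on mixed cells and on the mean level were chosen after seeing the data.

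In the Xcr1 gate alone the type 1 list changed sign, to -0.324 against 0.57 over all dendritic cells, and to -0.334 without the mixed cells as well. The type 2 list gave -0.56 and, without mixed cells, -0.74, interferon gamma 3.02 and 3.02, type I interferon 1.04 and 0.96, class I 0.53 and 0.48, glycolysis 1.44 and 1.46, proliferation 3.72 and 3.55, and maturation 0.89 and 1.15. The genes at least 2-fold higher were 171 and 146, and those lower 93 and 74. Removing the mixed cells from all gates gave 243 genes lower, class I 0.61 and proliferation 3.48.

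A dendritic marker sum of at least 3 (15 and 41 cells in titled positive and titled control) gave a share of 0.1384% in titled positive, type 1 0.81, type I interferon 0.34 and maturation 0.76. It gave 3.03 for the type 1 list in the Xcr1 gate of titled control over the other cells, 4.28 for the type 2 list in its Cd209a gate, and 71 genes lower in the Xcr1 gate of titled positive. A C1q sum of at most 2 (18 and 36 cells) gave class I 0.69 and 1.52 for the type 1 list in the Xcr1 gate of titled positive over the other cells. An epithelial sum of up to 20 (35 and 46 cells) gave type 1 0.35, interferon gamma 3.34, type I interferon 0.85 and maturation 0.76. The mean over cells of CPM gave interferon gamma 2.29, type I interferon 0.36, class I 0.73, and 2.39 for the type 1 list in the Xcr1 gate of titled control. Thinning to 1000 UMIs gave interferon gamma 1.87, type I interferon 0.18, class I 0.74, glycolysis 1.38, type 2 -3.14, and 2.28 for the type 1 list in the Xcr1 gate of titled control. Without the cell called a doublet Hopx changed sign, to -0.0501.

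Counts of genes depended on the filter. Counting genes with 1 UMI or more gave 3330 higher and 2774 lower, with 50 or more 120 and 120. For the Xcr1 gate over the other cells these filters gave 2684 and 19 higher and 2775 and 34 lower in titled positive, and 2491 and 41 higher and 2634 and 155 lower in titled control. For the Cd209a gate they gave 2135 and 80 higher and 2802 and 50 lower. Over macrophages they gave 9299 and 1561 higher in titled positive, and 2702 and 172 higher and 4154 and 306 lower in titled control. Over monocytes they gave 8980 higher in titled positive at 1 UMI, and 2126 and 149 higher and 3471 and 577 lower in titled control. Thinning gave 176 higher in the Xcr1 gate of titled positive, 531 higher in that of titled control, and 458 higher and 395 lower in the Cd209a gate. Over macrophages it gave 4923 higher and 816 lower in titled positive and 805 higher in titled control, and over monocytes 5244 higher and 898 lower, and 1112 higher. A pseudocount of 1 gave 771 and 996 lower in titled positive over macrophages and monocytes. The 20 UMI filter there gave 2433 higher and 1493 lower over macrophages and 2158 and 2012 over monocytes in titled positive, and 459 and 762, and 422 and 1358, in titled control. A mean of at least 100 CPM gave 158 and 193, 162 and 188, 122 and 181, and 72 and 155 in the same order.

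At these depths a count of 0 allows up to 25.25 CPM in titled positive and 10.13 CPM in titled control over the pooled dendritic cells.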

Other observations

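Receptors and regulators not described above varied gene by gene. Itgae, the integrin that binds E-cadherin, gave 45 UMIs in 18 cells of titled positive and 19 UMIs in 11 cells of titled control (log2 ratio 2.54, 1.76 to 3.42). Itgam, the integrin CD11b, gave 8 and 45 UMIs (-1.10, -2.47 to -0.07). Of 13 counted transcription factors 7 were higher in titled positive and 6 lower. Spi1, the factor PU.1, gave 54 and 131 UMIs (0.05, -0.45 to 0.51), and Batf3, needed for type 1 cells, 13 and 27 UMIs (0.29, -0.82 to 1.27). Of 5 counted cytokines, Il1b gave 96 and 114 UMIs (1.07, 0.66 to 1.47; without the cells that carried another lineage 0.19, -0.31 to 0.66), and Il18, Ebi3 and Tgfb1 had log2 ratios of -1.92, -1.49 and -1.29.

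Costimulatory and checkpoint genes were thinly covered. Of 19 listed, 6 were counted, 3 higher and 3 lower in titled positive. Btla, an inhibitory receptor, gave 20 UMIs in 12 cells of titled positive and 38 UMIs in 17 cells of titled control (0.41, -0.47 to 1.21), and Cd86, a costimulatory ligand, 7 and 27 UMIs (-0.56, -2.07 to 0.60). In the Xcr1 gate the whole list gave 43 and 51 UMIs (-0.12, -0.74 to 0.49). Immediate early genes, which tissue dissociation is known to induce, were lower in 9 of 13 counted cases in titled positive, Jun at -1.21 (-1.88 to -0.64) and Zfp36 at -0.46 (-0.76 to -0.19), while Nr4a1 stood at 0.97 (0.15 to 1.76). Their part in the differences between the libraries was not tested.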
